A study of Mus musculus with 6 samples.

Results

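The cytosolic ribosomal protein genes of the mouse were followed through muscle differentiation in the C2C12 line, a myoblast line from mouse skeletal muscle. The members are the protein-coding genes whose symbol is Rpl or Rps with a digit, together with Rpsa, Rplp0, Rplp1 and Rplp2, leaving out pseudogenes (symbols with -ps), the Rps6k kinases and Rps19bp1. There are 85 of them among 56297 gene symbols, namely 31 proteins of the small (40S) subunit, 43 of the large (60S) subunit, 3 of the P stalk and 8 paralogs, which are second copies of a ribosomal protein gene elsewhere in the genome. Another 7 symbols have the same pattern but are annotated as pseudogenes and were left out. Poly(A) RNA was sequenced from 2 biological replicates each of myoblasts (Day 0, harvested close to confluence), myotubes (Day 7 in low-serum medium) and reserve cells (Day 7 in the same medium). Myotubes and reserve cells came from the same kind of culture and were parted by mild trypsin treatment, and how completely they were parted was not tested here. All 6 libraries come from 1 established line, and no agent or genetic change separates the groups. The question put to these genes is whether the mRNAs that encode the ribosome change in step, and by how much, when dividing myoblasts become myotubes or stay behind as mononucleated reserve cells.

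A ribosome holds one copy of nearly every ribosomal protein, assembled on ribosomal RNA in the nucleolus and then exported. The 40S subunit decodes the mRNA, the 60S subunit joins the amino acids, and the P stalk recruits the GTPase translation factors. Ribosomal protein mRNAs are abundant, short and transcribed from housekeeping promoters. Most start with a cytosine and a run of pyrimidines, the terminal oligopyrimidine (TOP) element, through which mTOR signalling and the protein Larp1 set how strongly they are translated. An mRNA level therefore does not give the amount of ribosome made. Skeletal muscle is known for one exchange of a ribosomal protein gene, the use of Rpl3l beside Rpl3.

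The 6 libraries held between 15658875 and 20055078 estimated counts. Summed over 6 muscle markers, libraries ranged from 314.3 to 315.5 CPM (TMM-scaled counts, made comparable between libraries) in myoblasts, 23040 to 23200 in myotubes and 6552 to 7188 in reserve cells, and all 6 (Myog, Acta1, Ckm, Ttn, Myh3 and Tnnt3) were above 0 in each library. Summed over 3 division markers (Mki67, Top2a and Ccnb1), the values were 1299 to 1326, 91.7 to 104.0 and 499.6 to 514.6 CPM. Of 10 markers of other lineages, 5 to 8 were at 0 in a library, with Adipoq, Plin1, Ptprc and Rbfox3 at 0 in all 6, and the summed list reached at most 167.9 CPM, in myoblasts. Pax7, Myf5 and Notch3, markers of myoblasts and reserve cells, summed to 441.4 and 454.7 CPM in myoblasts, 74.66 and 75.15 in myotubes, and 423.6 and 431.7 in reserve cells. Reserve cell libraries thus carried muscle transcripts, whose part in the results below was not tested. In bulk RNA, fewer cells of a type and less RNA per cell cannot be told apart. Mitochondrially encoded genes took 1.89% ± 0.00212 of counts in myoblasts, 5.34% ± 0.0474 in myotubes, with 2.36% ± 0.000919 in reserve cells (SD, n = 2 each here and throughout).

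CPM here are scaled with TMM factors, which assume that most genes do not change. Scaled by library totals instead, all tested genes had a median that moved to −0.27 on the log2 scale in myotubes over myoblasts, −0.21 in myotubes over reserve cells and −0.06 in reserve cells over myoblasts. Myotube values of all ribosomal protein genes are lower by a common amount on that scale. Differences between genes of this family are not touched by the choice, and library-total values are given beside most of the increases described and for the other gene lists.

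Ribosomal protein mRNAs took a smaller share of the counts at Day 7. They held 3.40% ± 0.0127 of all counts in myoblasts, 2.57% ± 0.106 in myotubes, with 2.69% ± 0.0931 in reserve cells. The 2 myoblast libraries lay above all 4 others, and the myotube and reserve cell libraries overlapped one another. Per transcript length, in TPM (counts over transcript length, scaled to a common sum), the share was 9.44% ± 0.111, 6.65% ± 0.263 and 7.87% ± 0.214, and these 3 groups did not overlap. Their summed TMM-scaled level was 31360 ± 191.0 CPM in myoblasts, 28740 ± 977.0 in myotubes, with 26070 ± 852.0 in reserve cells. Reserve cells were thus lowest with TMM and myotubes lowest in shares of the library.

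Levels of single proteins, compared per length, were spread widely around a common centre. Among the 77 genes of the 40S, the 60S and the P stalk, the median was 1080.0 TPM in myoblasts with quartiles of 716.1 and 1551.0 TPM. In myotubes it was 750.4 TPM (quartiles 536.1 and 1116.0), and in reserve cells 895.0 TPM (quartiles 631.4 and 1292.0). Rpl23a, a 60S protein near the exit of the nascent chain, had the highest mean level in each group at 4164, 2754 and 3291 TPM in myoblasts, myotubes and reserve cells. These are gene totals, and in myotubes 63.2% ± 1.06 of the Rpl23a counts were in its coding transcript. Rpl21, also of the 60S, had the lowest at 20.7, 10.6 and 14.5 TPM. Far below the median lay 6 genes in myoblasts, 6 in myotubes, with 7 in reserve cells, and Rps2, Rps18, Rpl21, Rpl26 and Rpl29 were among them in all 3.

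Several of these low values sit on genes with many processed copies in the genome. In a search of pseudogene transcripts against the coding sequences, 78 members had 984 copies with at least 90% identity over at least 80% of the coding length. Copies of Rpl26 held 98.1% of the counts of gene and copies together, copies of Rpl21 94.1%, of Rps2 86.9%, of Rps3a1 79.3% and of Rpl29 78.9%. For these 5 genes the estimated count of the gene itself is uncertain, since reads that fit gene and copy can be given to either. Copies of Rps26 held 46.7%, of Rps7 44.5%, of Rpl3 34.6%, of Rps18 33.4% and of Rps10 30.4%. How the aligner and StringTie divided such reads was not tested. Values with the counts of copies added, an alternative chosen after the data were seen, are therefore given for Rpl3, Rps2, Rps26, Rpl21, Rps3a1, Rpl26, Rpl29 and Rps18.

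Of the 85 members, 83 passed the filter on low counts. The other 2 are paralogs, Rpl10l and Rpl39l, both known from testis, which had 0 counts in all 6 libraries. Their absence from the test says only that they were not detectable at this depth.

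**Figure D1:**
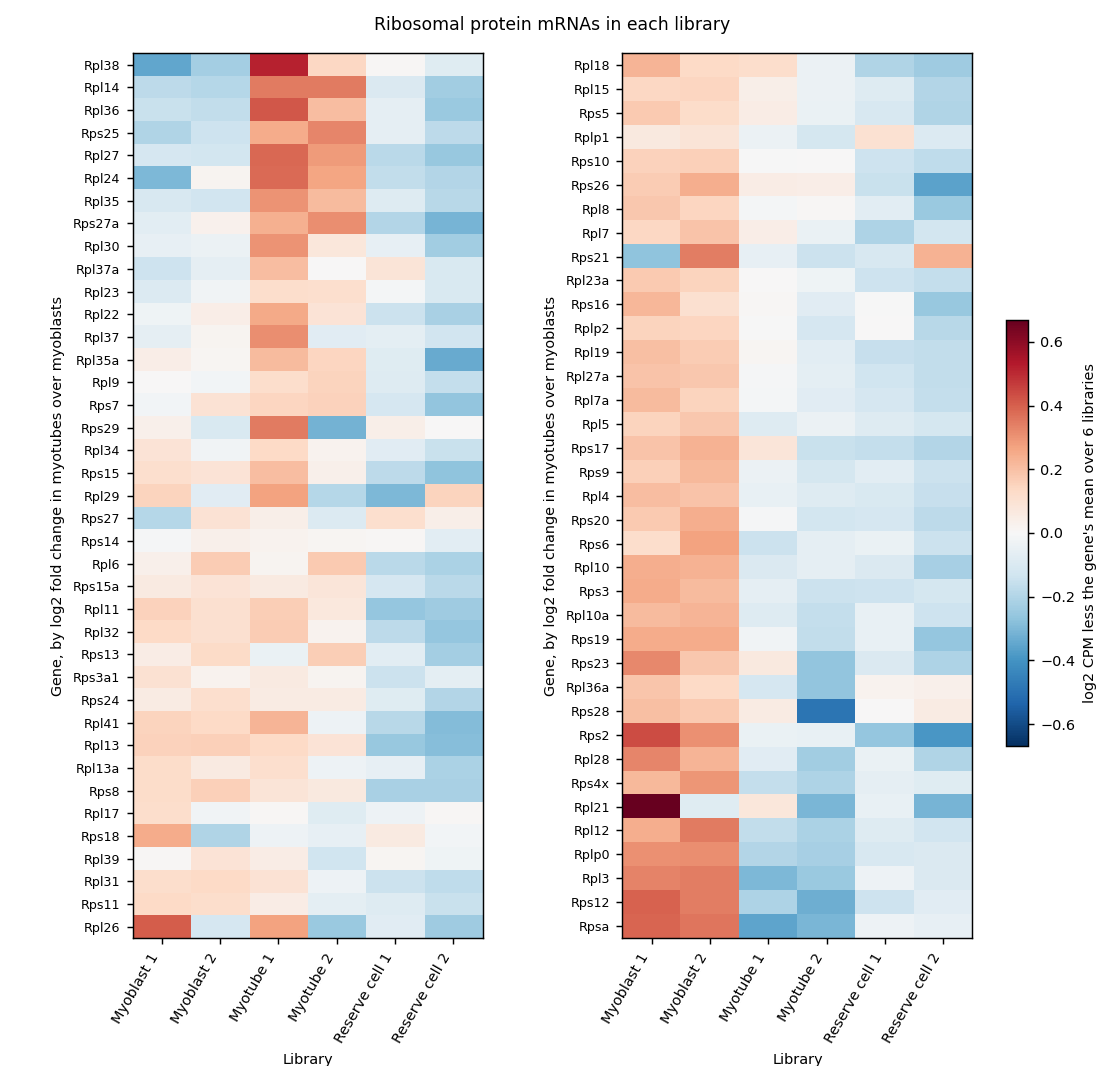
Colour shows log2 CPM (TMM scaling) of the genes of the 40S, 60S and P stalk reported here in each of the 6 libraries, less the mean of that gene over the libraries, with genes ordered by their log2 fold change in myotubes over myoblasts. Genes at the top left are highest in both myotube libraries, and Rpsa, Rps12, Rpl3 and Rplp0 at the bottom right are highest in both myoblast libraries.

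Myotubes were compared with myoblasts to see how the family stands in the differentiated cells. With TMM scaling 15 members were higher and 33 lower in myotubes (edgeR's quasi-likelihood test, adjusted p under 0.05), and 35 were not called. Over all genes tested 65.3% were called in this comparison, 32.7% higher and 32.7% lower, so the 48 calls among 83 members do not exceed the background share. The median log2 fold change of the members was −0.13, beside 0.0045 over all 15454 genes. Members lay close together. For 80 of the 83 the 95% interval of the fold change lay within 2-fold of no change, and 1 member, Rpl3l, was called with at least a 2-fold change, while 35.5% of all genes were called at that size. CPM of the groups did not overlap for 62 of the 83 members, against 83.0% of all genes. With library totals 6 members were higher and 59 lower. Over all genes, the share of calls that were higher was 49.99% with TMM and 36.6% with library totals.

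Calls in the 40S and the 60S are set beside the 32.7% of all genes called higher and 32.7% called lower. Of 31 proteins of the 40S, 2 were higher and 15 lower, with a median log2 fold change of −0.16. Of 43 proteins of the 60S, 10 were higher and 15 lower, with a median of −0.05. In the P stalk 0 of 3 genes were higher and 2 were lower. The difference between subunits was not tested, since genes of a subunit are not replicates.

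The largest decrease of the 40S was that of Rpsa, the laminin receptor-like protein at the back of the 40S head. It stood at 1241.5 and 1215.8 CPM in myoblasts, 743.3 and 765.8 in myotubes, and 926.0 and 911.4 in reserve cells. The 3 groups did not overlap, with myotubes lowest. The log2 fold change in myotubes over myoblasts was −0.70 ± 0.03 (SE; edgeR adjusted p = 2.2e-07). These values are gene totals. The coding transcript Rpsa-201 held 81.9% ± 5.85 of them in myoblasts and 98.4% ± 0.311 in myotubes, and its level alone was not tested. Rps12, a 40S protein of the beak, read 377.6 and 364.3 CPM in myoblasts, 249.2 and 229.1 in myotubes, and 261.2 and 272.6 in reserve cells. Here too myotubes were lowest, with a log2 fold change over myoblasts of −0.63 ± 0.05 (edgeR adjusted p = 1.1e-05).

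Rpl3, the 60S protein that reaches the peptidyl transferase centre, was the member of the 60S whose gene total fell most. Gene totals include forms not annotated as coding, such as those of Rpl23a described below, and coding transcripts alone were not ranked. It read 562.3 and 567.7 CPM in myoblasts, 363.6 and 377.0 in myotubes, and 437.2 and 418.0 in reserve cells. Its log2 fold change in myotubes over myoblasts was −0.61 ± 0.04 (edgeR adjusted p = 2.4e-06), and −0.58 with the counts of its copies added (adjusted p = 4.2e-06). Rplp0 is the scaffold of the P stalk and, under the name 36B4, a common reference gene in quantitative PCR. It read 1666.2 and 1673.2 CPM in myoblasts, 1176.2 and 1154.3 in myotubes, and 1251.8 and 1261.7 in reserve cells. Myotubes over myoblasts stood at a log2 fold change of −0.52 ± 0.03 (edgeR adjusted p = 5.3e-07). All 4 of these decreases stood in each of the 20 other settings tried.

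Against this drift, a small group of mostly 60S genes rose. Rpl38, a small 60S protein known from the tail-short mouse, read 77.5 and 84.3 CPM in myoblasts, 141.2 and 108.7 in myotubes, and 99.3 and 93.3 in reserve cells. The myotube libraries were above all others but far apart. The log2 fold change over myoblasts was 0.63 ± 0.12 (edgeR adjusted p = 0.00159), and 0.35 with library totals. Rpl14, a 60S protein on the solvent side, read 369.2 and 364.9 CPM in myoblasts, 531.0 and 529.6 in myotubes, and 389.8 and 354.8 in reserve cells. Its myotube libraries agreed closely and stood apart from the other 4, which overlapped. The log2 fold change was 0.53 ± 0.05 (edgeR adjusted p = 1.9e-05), and 0.25 with library totals.

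Rpl36, of the 60S, read 181.7 and 179.3 CPM in myoblasts, 268.0 and 232.1 in myotubes, and 193.1 and 169.4 in reserve cells. The log2 fold change in myotubes was 0.47 ± 0.08 (edgeR adjusted p = 0.00108), and with library totals it was 0.19 and no longer called (adjusted p = 0.0781). Rps25, the 40S protein needed by several viral and cellular internal ribosome entry sites, read 280.6 and 293.1 CPM in myoblasts, 382.7 and 403.8 in myotubes, and 309.2 and 285.1 in reserve cells. This gave a log2 fold change of 0.46 ± 0.05 (edgeR adjusted p = 9.5e-05), and 0.18 with library totals. Among others, Rpl14, Rpl27, Rpl38, Rps25 and the paralog Rpl3l were called higher in myotubes than in myoblasts in each of the 21 settings, TMM included, that tested them (Rpl3l fell below a filter at 10 CPM). The count of members called lower in all settings was 17.

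**Figure D2:**
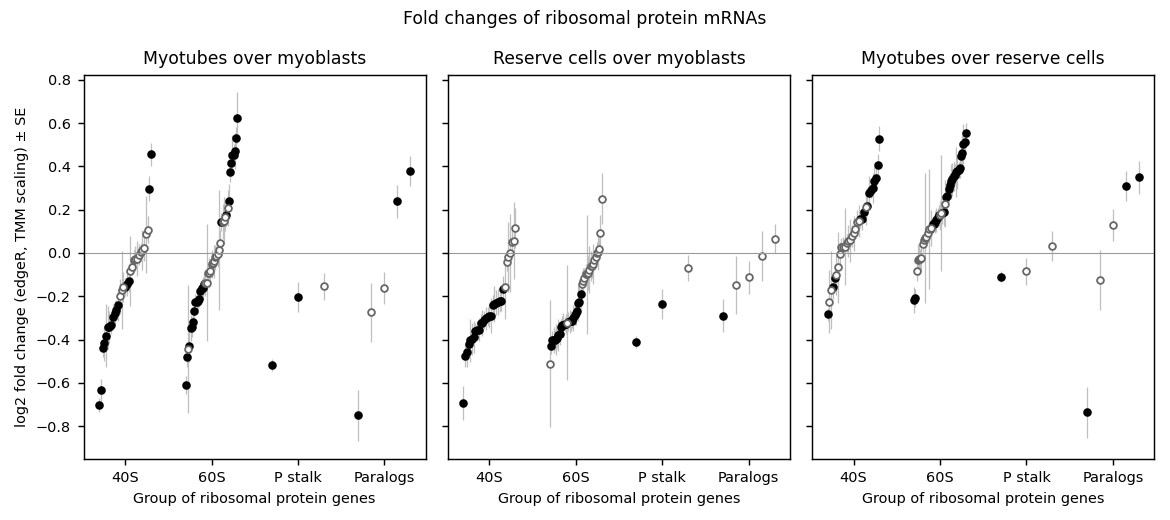
Each point is 1 ribosomal protein gene at its log2 fold change with its SE (edgeR, TMM scaling), in 3 panels for the 3 comparisons and in 4 columns for 40S, 60S, P stalk and paralogs, with filled points for an adjusted p under 0.05. Rpl3l, with no counts in myoblasts, is left out. Reserve cells over myoblasts show no filled point above 0, and myotubes over reserve cells show most filled points above 0.

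Reserve cells were compared with myoblasts to see whether the family moves in the mononucleated cells that share the medium and day of myotubes. Their libraries also carried muscle transcripts, as given above. Nearly all calls were decreases. With TMM scaling 51 members were lower and 1, Rpl3l, was higher (edgeR adjusted p under 0.05), and 31 were not called. The background over all genes is 46.2% called, 21.8% lower and 24.4% higher. The members' median log2 fold change was −0.27, beside 0.014 over all genes tested. Of the 40S 24 of 31 genes were lower, of the 60S 24 of 43, and of the P stalk 2 of 3. CPM did not overlap between the groups for 62 of 83 members, against 74.8% of all genes. Library totals gave 55 lower and 1 higher.

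The shift was narrow. The members' log2 fold changes had quartiles of −0.34 and −0.09. Scaling factors were also taken from the ribosomal protein genes alone, an alternative chosen after the data were seen. These factors centre the family by construction, so the loss of decreases under them does not test whether the shift was shared. With them 16 members were higher and 3 lower. Those lower were Rps2, Rps12 and Rpl13, the members called lower in all 21 settings. Rps2, a 40S protein at the mRNA entry channel, read 112.4 and 102.8 CPM in myoblasts, 80.8 and 80.3 in myotubes, and 69.6 and 63.5 in reserve cells. The 3 groups did not overlap, with reserve cells lowest. Myotubes exceeded reserve cells by 0.28 on the log2 scale (edgeR adjusted p = 0.0175). That call was lost with library totals (0.07, adjusted p = 0.494) and with factors from the family (0.12, adjusted p = 0.263). The log2 fold change in reserve cells over myoblasts was −0.69 ± 0.08 (edgeR adjusted p = 0.00016), and −0.60 with the counts of its many copies added (adjusted p = 0.00014).

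Rps12 fell by 0.47 ± 0.05 on the log2 scale in reserve cells over myoblasts (edgeR adjusted p = 0.00014). Rps26, a 40S protein at the mRNA exit, read 278.5 and 292.9 CPM in myoblasts, 256.6 and 255.8 in myotubes, and 223.5 and 192.9 in reserve cells. This gave a log2 fold change of −0.46 ± 0.07 (edgeR adjusted p = 0.00084), and −0.46 with copies added. Rpl13, of the 60S, read 545.2 and 547.3 CPM in myoblasts, 536.5 and 522.1 in myotubes, and 410.0 and 401.1 in reserve cells. For Rpl13 the myotube and myoblast levels lay close together and reserve cells stood apart. Its log2 fold change in reserve cells was −0.43 ± 0.04 (edgeR adjusted p = 2.5e-05).

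Myotubes were set against reserve cells, their neighbours in the dish. With TMM scaling 40 members were higher and 7 lower in myotubes (edgeR adjusted p under 0.05), and 36 were not called, beside 27.2% of all genes higher, 28.5% lower and 55.7% called in all. The members' median log2 fold change was 0.14, beside −0.0064 over all genes. In the 60S 26 of 43 genes were higher and 2 lower, in the 40S 11 of 31 were higher and 3 lower, and in the P stalk 0 of 3 were higher and 1 was lower. These are calls on gene totals. Rpl23a is among the 60S genes called higher. Its coding transcript held 63.2% of its counts in myotubes and 99.9% in reserve cells. The direction of the median depends on the scaling. With library totals it was −0.06, and 11 members were higher and 22 lower, while the share of calls over all genes that were higher went from 48.9% to 34.1%. CPM did not overlap for 60 of 83 members, against 78.3% of all genes. Leaving out reserve cell replicate 2 reduced the members called higher to 24.

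Rpl27, a 60S protein, had the largest increase among the genes of the 40S, 60S and P stalk, with 398.9 and 371.6 CPM in myotubes and 269.6 and 255.7 in reserve cells, beside 281.9 and 280.6 in myoblasts. Its log2 fold change over reserve cells was 0.55 ± 0.05 (edgeR adjusted p = 2.8e-05), and 0.35 with library totals. Rpl14 stood at 0.51 ± 0.05 (edgeR adjusted p = 4e-05) on the values above. Rpl24, the 60S protein that forms a bridge to the 40S, read 248.1 and 309.0 CPM in myoblasts, 396.6 and 366.6 in myotubes, and 272.1 and 266.4 in reserve cells. Its myoblast libraries bracketed both reserve cell libraries, and its log2 fold change over reserve cells was 0.50 ± 0.09 (edgeR adjusted p = 0.00184), and 0.30 with library totals.

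Rps27a encodes a 40S protein fused to ubiquitin, one of the sources of free ubiquitin in the cell. It read 281.2 and 301.3 CPM in myoblasts, 349.0 and 366.9 in myotubes, and 258.3 and 238.3 in reserve cells. The 3 groups were in 3 separate ranges. It was the member with opposite calls in the Day 7 groups, at log2 fold changes over myoblasts of 0.30 ± 0.06 in myotubes (edgeR adjusted p = 0.00178) and −0.23 ± 0.06 in reserve cells (adjusted p = 0.011). Myotubes exceeded reserve cells by 0.53 ± 0.06 (edgeR adjusted p = 8.4e-05). On library totals the change in myotubes over myoblasts was 0.02 (adjusted p = 0.775), that over reserve cells stayed called at 0.32, and with scaling on the ribosomal protein genes alone the change in reserve cells was 0.04 (adjusted p = 0.656). The call in reserve cells was also lost without myoblast replicate 2 (−0.18, adjusted p = 0.0894) and without reserve cell replicate 2 (−0.17, adjusted p = 0.0812).

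Among the genes of the 40S, 60S and P stalk, the 4 largest decreases of the comparison were again led by the gene total of Rpsa. It stood at −0.28 ± 0.03 in myotubes over reserve cells (edgeR adjusted p = 0.0001). The share of its coding transcript Rpsa-201 was higher in myotubes (98.4% ± 0.311) than in reserve cells (75.1% ± 1.70). The level of that transcript alone was not tested, so its direction is not given by the total. Rpl36a, of the 60S, read 194.5 and 187.5 CPM in myoblasts, 158.1 and 142.5 in myotubes, and 174.1 and 175.1 in reserve cells, which is a log2 difference of −0.22 ± 0.06 (edgeR adjusted p = 0.0161). This call was lost without myotube replicate 2 (−0.15, adjusted p = 0.0882) and without either reserve cell library (adjusted p = 0.0511 and 0.0589). Rpl3 was lower by −0.21 ± 0.04 (edgeR adjusted p = 0.0025). Rps12, at −0.16 ± 0.05 (edgeR adjusted p = 0.0334), lost its call with RLE factors (adjusted p = 0.0865), without myotube replicate 2 (−0.11, adjusted p = 0.157) and without reserve cell replicate 2 (−0.14, adjusted p = 0.135).

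**Figure D3:**
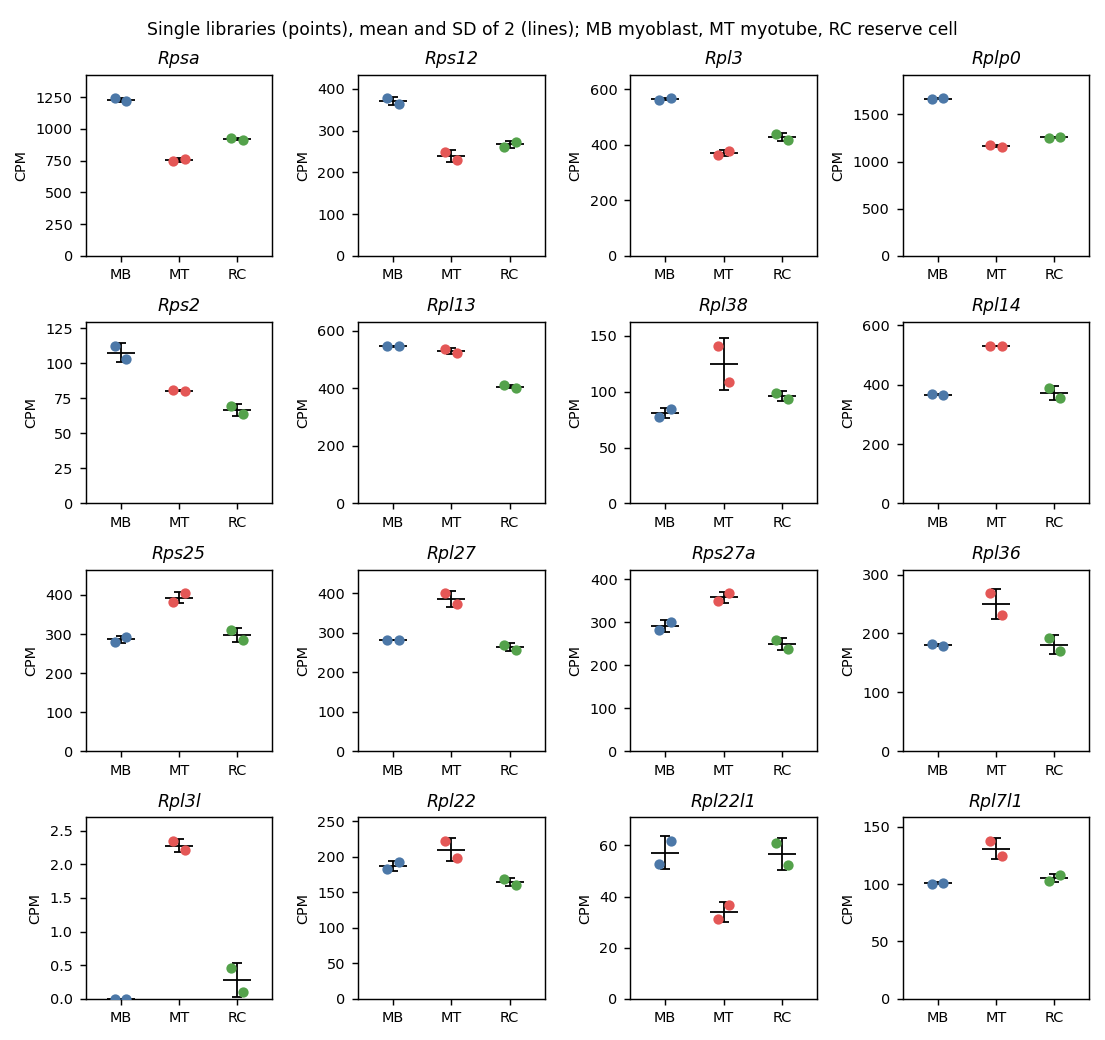
CPM (TMM scaling, linear axes from 0) of 16 ribosomal protein genes in myoblasts (MB), myotubes (MT) and reserve cells (RC), with 1 point for each library and lines for the mean and SD of 2. Rpsa, Rps12, Rpl3 and Rplp0 are lowest in myotubes, Rps2 and Rpl13 lowest in reserve cells, and Rpl14, Rps25 and Rpl27 highest in myotubes.

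Across the 3 groups, 30 members were called lower than in myoblasts both in myotubes and in reserve cells, and 20 were called lower in reserve cells while not called in myotubes. Both comparisons share the myoblast libraries. The share of all tested genes with each pattern of calls in this paragraph was not counted, so the sets are a description without a background. A set of 15 members was higher in myotubes than in both other groups, among them Rpl9, Rpl23, Rpl30 and Rpl35 of the 60S beside those described. Under library totals none of these 4 was called higher in myotubes than in myoblasts. Rpl9 was called lower there (−0.14, edgeR adjusted p = 0.0212), while Rpl23 (−0.10, adjusted p = 0.0852), Rpl30 (−0.04, adjusted p = 0.700) and Rpl35 (0.10, adjusted p = 0.115) were not called. A set of 7 was lower in myotubes than in both other groups, namely Rpl3, Rpl22l1, Rpl36a, Rplp0, Rps4x, Rps12 and Rpsa. Of these 7, Rpl3, Rpl22l1, Rpl36a and Rpsa were called lower than in reserve cells under each of 4 scalings (TMM, RLE, library totals and factors from the family). Rplp0 (−0.07, edgeR adjusted p = 0.0556) and Rps12 lost that call with RLE factors. For Rpsa the call is on the gene total. Its coding transcript Rpsa-201 held 98.4% of that total in myotubes and 75.1% in reserve cells. The level of that transcript alone was not tested. With TMM, 14 members had no call in any comparison. They included Rpl21, Rpl26, Rpl29 and Rps18, named above as far below the median level. With the counts of copies added, 3 of these 4 did receive calls. Rpl21 was then lower in myotubes than in myoblasts (−0.25, edgeR adjusted p = 0.00533) and lower in reserve cells (−0.34, adjusted p = 0.00186). Rpl26 was lower in reserve cells than in myoblasts (−0.20, edgeR adjusted p = 0.00593), higher in myotubes than in myoblasts (0.13, adjusted p = 0.0335) and higher in myotubes than in reserve cells (0.33, adjusted p = 0.00031). For Rpl29 reserve cells were lower than myoblasts (−0.44, edgeR adjusted p = 0.00685) and myotubes higher than reserve cells (0.47, adjusted p = 0.00398). Rps18 had no call on this count either. Rps3a1, a 40S protein, was called lower in reserve cells than in myoblasts without copies (−0.17, edgeR adjusted p = 0.0496) and with them (−0.22, adjusted p = 0.00796), and its difference between myotubes and reserve cells was called with copies (0.23, adjusted p = 0.00479) but not without (0.14, adjusted p = 0.0767).

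The remaining members named for their roles moved within this frame. Rpl5 and Rpl11 bind 5S ribosomal RNA and, outside the ribosome, the p53 ligase Mdm2. Rpl5 read 568.6 and 580.1 CPM in myoblasts, 483.2 and 498.1 in myotubes, and 482.4 and 471.7 in reserve cells, which is a log2 difference of −0.23 ± 0.04 in myotubes (edgeR adjusted p = 0.00064) and −0.27 ± 0.04 in reserve cells (adjusted p = 0.00046). Rpl11 read 343.0 and 331.5 CPM in myoblasts, 344.7 and 323.2 in myotubes, and 257.9 and 261.7 in reserve cells. Myotubes and myoblasts overlapped for Rpl11 (log2 fold change −0.01 ± 0.05, edgeR adjusted p = 0.803), and reserve cells lay lower (−0.38 ± 0.05, adjusted p = 0.00026). The fitted changes of the 2 partners in myotubes over myoblasts thus differed, and the difference between them was not tested.

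Rps6, the 40S protein phosphorylated by S6 kinase, read 629.3 and 698.0 CPM in myoblasts, 524.8 and 556.1 in myotubes, and 560.7 and 525.0 in reserve cells. It was lower in both Day 7 groups, at −0.30 ± 0.06 (edgeR adjusted p = 0.00206) and −0.29 ± 0.06 (adjusted p = 0.0039). Rplp1 and Rplp2, the acidic proteins that bind Rplp0 in pairs, changed less than Rplp0 in the fitted values. Rplp1 read 598.4 and 608.7 CPM in myoblasts, 557.8 and 527.4 in myotubes, and 613.8 and 536.9 in reserve cells, with log2 fold changes of −0.15 ± 0.06 (edgeR adjusted p = 0.0559) and −0.07 ± 0.06 (adjusted p = 0.399). Rplp2 read 246.7 and 245.5 CPM, 222.1 and 205.7, and 222.8 and 195.3, with −0.20 ± 0.07 (edgeR adjusted p = 0.0305) in myotubes. That call was lost with RLE factors (adjusted p = 0.0551), without either myoblast library (adjusted p = 0.0893 and 0.0828) and without myotube replicate 2 (0.142). In reserve cells Rplp2 stood at −0.24 ± 0.07 (edgeR adjusted p = 0.023), a call lost without either myoblast library (adjusted p = 0.0872 and 0.0897) and without reserve cell replicate 2 (0.146).

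Coding length and GC content were set beside their fold changes over the 77 genes of the 40S, 60S and P stalk, as a description, since the genes share their 6 libraries. Members with a short coding sequence tended to higher fold changes, with Spearman's rho of −0.37 in myotubes over myoblasts and −0.46 in reserve cells over myoblasts (Pearson's r −0.40 and −0.46), beside −0.11 and −0.006 over all tested coding genes. In myotubes over reserve cells rho was −0.10. With the GC content of the transcript rho lay between −0.07 and 0.057.

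**Figure D4:**
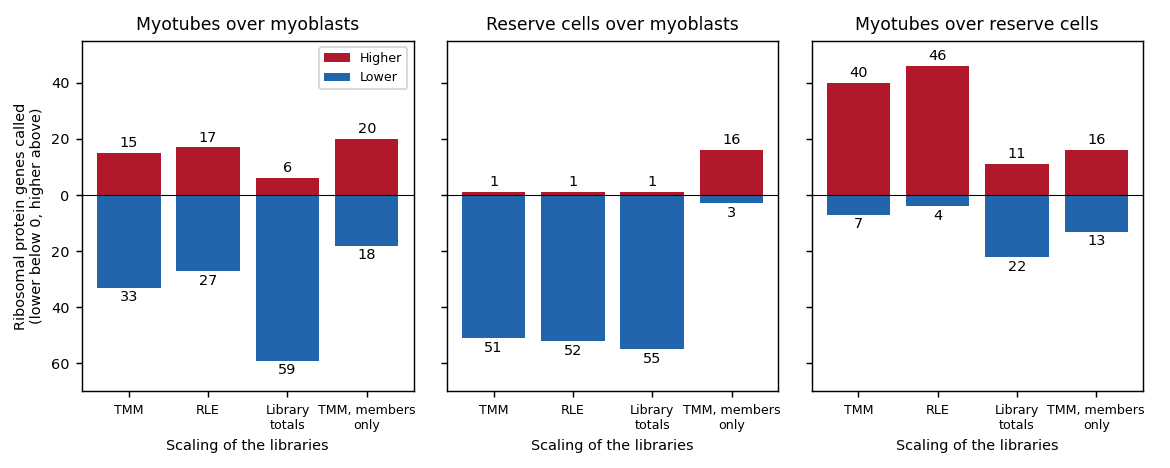
Bars give the number of the 83 tested ribosomal protein genes called higher (above 0) and lower (below 0) at an adjusted p under 0.05, in 3 panels for the 3 comparisons, under TMM, RLE, library totals and TMM factors from the ribosomal protein genes alone. Myotubes over reserve cells go from 40 higher and 7 lower with TMM to 11 and 22 with library totals. Reserve cells over myoblasts go from 1 higher and 51 lower to 16 and 3 with factors from the family itself, which centre it by construction.

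The paralogs are described beside their parents. Rpl3l on chromosome 17 is the muscle paralog of Rpl3 and was the member with the largest change. It had 0 and 0 counts in myoblasts, 33 and 38 in myotubes, and 9 and 2 in reserve cells. Set against a floor of 3 counts over the 2 myoblast libraries, its counts gave a ratio of 29.4 in myotubes and 3.64 in reserve cells. These ratios leave out the sampling error of the Day 7 counts and are not lower bounds. In the separate edgeR test it was called higher than in myoblasts in myotubes (edgeR adjusted p = 0.00083) and in reserve cells (adjusted p = 0.029). The call in reserve cells was lost without reserve cell replicate 1 (adjusted p = 0.136), without myoblast replicate 1 (0.0822) or 2 (0.104), and without myotube replicate 1 (0.0559) or 2 (0.0571). Myotubes exceeded reserve cells by 2.99 ± 0.75 on the log2 scale (edgeR adjusted p = 0.0115), a call lost without either myotube library (adjusted p = 0.0565 and 0.0553) and without reserve cell replicate 2 (0.066).

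Rpl3l stayed a trace beside Rpl3. Per length it made up 0.687% ± 0.0489 of the pair in myotubes, with 0.0769% ± 0.0707 in reserve cells. Its rise was thus accompanied by the decrease of Rpl3 described above, while Rpl3 still supplied nearly all of the pair.

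Rpl22l1 was the paralog with the largest decrease. It read 52.6 and 61.7 CPM in myoblasts, 31.2 and 36.7 in myotubes, and 61.0 and 52.3 in reserve cells. Myoblasts and reserve cells overlapped and myotubes lay below both, at log2 fold changes of −0.75 ± 0.12 over myoblasts (edgeR adjusted p = 0.00059) and −0.74 ± 0.12 over reserve cells (adjusted p = 0.0009). Its partner Rpl22, a 60S protein that binds RNA hairpins and is known to restrain Rpl22l1, read 182.5 and 192.3 CPM in myoblasts, 222.1 and 198.5 in myotubes, and 168.5 and 160.6 in reserve cells. Rpl22 over myoblasts stood at 0.17 ± 0.07 in myotubes (edgeR adjusted p = 0.0535) and was called lower in reserve cells at −0.19 ± 0.07 (adjusted p = 0.0461). The call in reserve cells was lost without any 1 of the 4 libraries compared (adjusted p = 0.0709 to 0.223), and its sign turned with scaling on the family alone (0.09). Per length, Rpl22l1 held 47.0% ± 3.39 of the pair in myoblasts, 27.4% ± 6.84 in myotubes, with 53.97% ± 3.11 in reserve cells. The myotube libraries were below the other 4.

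Rpl7l1, a homologue of Rpl7 that works in 60S assembly, read 100.03 and 101.32 CPM in myoblasts, 137.4 and 124.3 in myotubes, and 103.0 and 107.9 in reserve cells. It was called higher in myotubes with TMM, at 0.38 ± 0.07 over myoblasts (edgeR adjusted p = 0.00132), while library totals gave 0.10 (adjusted p = 0.243). Rps27l, a p53 target related to Rps27, read 75.3 and 79.1 CPM, 95.6 and 86.7, and 72.4 and 70.5. Its log2 fold change in myotubes over myoblasts was 0.24 ± 0.08 (edgeR adjusted p = 0.0227) with TMM and −0.04 with library totals, and the call was lost without myoblast replicate 1 or 2 (adjusted p = 0.124 and 0.0574) and without myotube replicate 1 (0.127). Its parent Rps27 read 146.3 and 178.1 CPM in myoblasts, 171.0 and 156.4 in myotubes, and 179.9 and 171.4 in reserve cells, with no call under TMM. Library totals called Rps27 lower in myotubes than in myoblasts (−0.26, edgeR adjusted p = 0.0342).

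Rpl36al, a retrocopy that encodes a protein close to Rpl36a, read 80.3 and 82.6 CPM in myoblasts, 72.5 and 73.2 in myotubes, and 69.8 and 63.5 in reserve cells. It was lower in reserve cells at −0.29 ± 0.07 (edgeR adjusted p = 0.0128). Rps27rt, a retrocopy of Rps27, had 16.4 to 20.8 CPM over the 6 libraries and no call. Of the parents of the undetected Rpl10l and Rpl39l, Rpl10 was lower in myotubes at −0.32 ± 0.04 (edgeR adjusted p = 0.00029) and in reserve cells at −0.39 ± 0.04 (adjusted p = 0.00016), on 761.1 and 754.1 CPM in myoblasts, 599.9 and 615.0 in myotubes, and 601.1 and 551.5 in reserve cells. Rpl39 stood between 140.7 and 164.5 CPM with no call under TMM. Rpl7 was lower in myotubes at −0.16 ± 0.05 (edgeR adjusted p = 0.0122) and in reserve cells at −0.33 ± 0.05 (adjusted p = 0.0005).

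Promoter sequence is shown for 3 members that left the family's course, Rpl3l and Rpl22l1 among the paralogs and Rpl38 among the increases. Each run is the 100 bases before the annotated start in RefSeq (GRCm38.p6), 5′ to 3′ on the strand of the gene. GENCODE places its first start inside each of these windows. Capitals mark CAGCTG, the E-box letters that MyoD binds (Rpl3l, chr17:24727726-24727825), TATAAA read on both strands (Rpl22l1, chr3:28805408-28805507), and GGGCGG, the letters of Sp1, followed by CCGGAAG, the core bound by ETS factors (Rpl38, chr11:114668480-114668579).
Rpl3l: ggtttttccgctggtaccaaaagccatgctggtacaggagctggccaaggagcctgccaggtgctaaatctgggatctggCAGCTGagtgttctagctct
Rpl22l1: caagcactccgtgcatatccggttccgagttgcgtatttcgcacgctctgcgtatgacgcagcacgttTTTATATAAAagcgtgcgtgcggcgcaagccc
Rpl38: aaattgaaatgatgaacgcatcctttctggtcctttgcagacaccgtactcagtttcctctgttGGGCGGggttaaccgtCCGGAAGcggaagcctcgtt

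Over windows from 250 bases before to 50 bases after the start, available for 65 of the 85 members and 27025 genes, CCGGAAG was found on either strand in 26 of the 65 members and 9.93% of all genes. GGGCGG was found in 61.5% and 38.2%, AAGATGG (the letters of YY1) in 15.4% and 7.28%, TATAAA in 10.8% and 15.7%, and CAGCTG in 6.15% and 18.3%. A match is a run of letters and not a shown site of binding. At the annotated transcript starts, a cytosine followed by at least 4 pyrimidines stood in 11 of 83 tested members (13.3%) and in 290 of 12868 tested coding genes (2.25%). Annotated starts often lie some bases away from the true one. The first 20 bases of Rpl32, Rpl30 and Rpl36 in the GENCODE transcripts show the element, in capitals.
Rpl32: CTTCCTTCTTCCTCggcgct
Rpl30: CCTTTCTCgctccccggcca
Rpl36: CTTCCTgtcccggccgccat

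Beyond its level, a ribosomal protein gene can change which transcript it makes. Usage of transcripts was tested in the 75 members with at least 2 transcripts above the filter (edgeR's diffSpliceDGE, Simes p per gene, Benjamini-Hochberg adjustment over 8288 genes). In myotubes over myoblasts 6 members were called, among them Rps10, Rpl23a, Rpsa, Rps24 and Rpl11, against 4.44% of all genes tested. In myotubes over reserve cells 5 were called (2.33% of all genes), among them Rps10, Rpl23a, Rpsa and Rps14. In reserve cells over myoblasts 1 was called (2.30% of all genes), Rps14. Counts per transcript are StringTie's estimates from reads that transcripts of a gene mostly share, so they are less certain than counts per gene.

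Rps24 on chromosome 14, a 40S protein, has transcripts whose coding sequence ends differently behind a common exon. Rps24-205 (525 bases) holds an exon of 18 bases at chr14:24494052-24494069 (mm10) that Rps24-202 (519 bases) and Rps24-210 (1613 bases) skip. The runs below are the last 12 bases of the shared coding exon, in lower case, and the following 18 bases of each transcript, in capitals. They show why the proteins differ at their ends. Rps24-202 meets a stop codon at once and encodes 130 residues, the 18-base exon of Rps24-205 adds a codon before its stop (131 residues), and Rps24-210 runs on to the next exon for 133 residues.
Rps24-202: gctggcaaaaagTGAGTGGAGATTGGATAC
Rps24-205: gctggcaaaaagAAATGAAATACCTAGCAG
Rps24-210: gctggcaaaaagCCAAAGGAGTAGATCTGC

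Rps24-205 had 1431 and 1593 counts in myoblasts, 5558 and 6855 in myotubes, and 3380 and 3423 in reserve cells. Rps24-202 had 4839 and 6768, 734 and 949, and 4009 and 3477. Rps24-210 had 1086 and 1750, 63 and 93, and 502 and 325. The form with the small exon went from 15.04% ± 1.77 of the gene's counts in myoblasts to 77.6% ± 0.423 in myotubes, with reserve cells between at 38.9% ± 3.19, and the groups did not overlap. Rps24-202 went from 56.8% ± 2.47 to 10.5% ± 0.407, with reserve cells at 42.6% ± 1.17. The change of usage in myotubes over myoblasts had an adjusted p of 0.00148 (edgeR, Simes), and it missed the threshold without myoblast replicate 2 (0.0624) and without myotube replicate 1 (0.0584) or 2 (0.0528). Reserve cells over myoblasts were not called (edgeR adjusted p = 0.944, and 0.177 by the F test). Myotubes over reserve cells were not called by Simes (edgeR adjusted p = 0.128) and were called by the F test over all transcripts of the gene (0.00448). All this took place at nearly the same total, since Rps24 read 512.6 and 532.7 CPM in myoblasts and 511.3 and 511.9 in myotubes (log2 fold change −0.03 ± 0.05, edgeR adjusted p = 0.577).

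Rps10 on chromosome 17, a 40S protein of the beak, changed between a pair of coding transcripts with the same coding exons. Rps10-203 has a further exon of 342 bases at chr17:27635204-27635545 (mm10) ahead of the coding sequence, which Rps10-208 lacks. Pseudogene copies of Rps10 held 30.4% of the counts of gene and copies together. How their reads bear on the shares of its transcripts was not tested. Rps10-203 had 488 and 826 counts in myoblasts, 2938 and 3786 in myotubes, and 573 and 413 in reserve cells, which is 12.3% ± 2.49, 88.4% ± 2.92 and 11.5% ± 2.26 of the gene. Rps10-208 had 3970 and 4919, 245 and 184, and 3702 and 3605. Myotubes stood apart, and myoblasts and reserve cells overlapped. The change had an edgeR adjusted p of 1.5e-05 over myoblasts, which became 0.079 without myotube replicate 2. Over reserve cells it was 2.8e-05, and 0.0887 without myotube replicate 2, 0.0646 without reserve cell replicate 1 and 0.0588 without reserve cell replicate 2.

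Rpl23a and Rpsa changed in forms annotated as retained introns or as targets of decay. Of Rpl23a on chromosome 11, the retained-intron transcripts Rpl23a-202 and Rpl23a-203 had 20 and 42 counts and 1 and 6 counts in myoblasts, 3120 and 3966 and 1146 and 1354 in myotubes, and 14 and 24 and 5 and 2 in reserve cells. The coding transcript Rpl23a-201 held 99.8% ± 0.0765 of the gene in myoblasts, 63.2% ± 1.06 in myotubes, with 99.9% ± 0.0378 in reserve cells. The edgeR adjusted p was 2.7e-05 over myoblasts and 3.8e-05 over reserve cells, and these calls held with each library left out. Rpl23a overlaps Tlcd1 on the other strand, and strandedness is not given in the sources used here. Tlcd1 read 17.1 and 15.36 CPM in myoblasts, 14.65 and 14.77 in myotubes, and 24.51 and 24.09 in reserve cells, with no call in myotubes over myoblasts (edgeR adjusted p = 0.346), while it was lower in myotubes than in reserve cells (log2 fold change −0.72 ± 0.12, adjusted p = 0.00112).

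Rpsa-206, annotated as a substrate of nonsense-mediated decay, had 2616 and 5618 counts in myoblasts, 25 and 0 in myotubes, and 4046 and 4052 in reserve cells. It made up 16.8% ± 6.37 of Rpsa in myoblasts, 0.120% ± 0.169 in myotubes, with 22.5% ± 0.704 in reserve cells (edgeR adjusted p = 0.0008 and 0.00125 for myotubes over myoblasts and over reserve cells). The coding transcript Rpsa-201 had 18298 and 20497, 10306 and 12923, and 14013 and 13004 counts. The gene total of Rpsa in myoblasts and reserve cells thus includes a form that is not annotated to make the full protein. The decreases of that total in myotubes therefore do not give the change of the coding transcript.

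**Figure D5:**
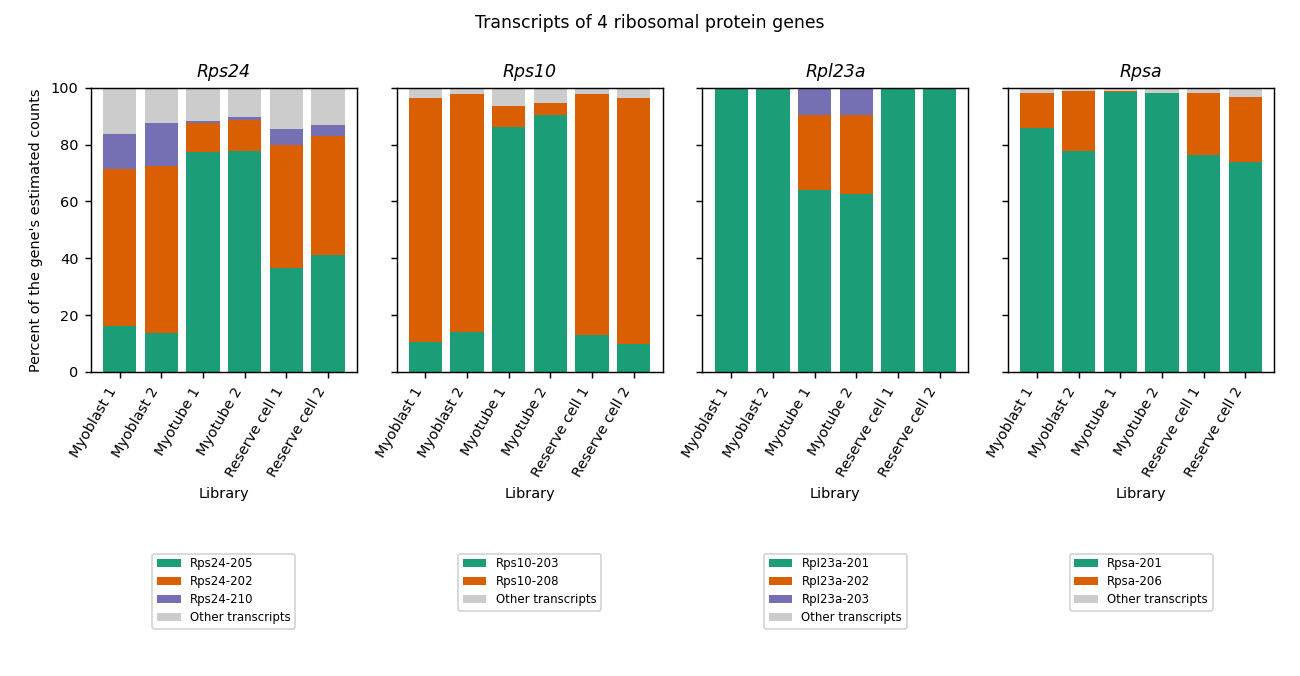
Stacked bars give the percent of a gene's estimated counts in each named transcript, for Rps24, Rps10, Rpl23a and Rpsa in each of the 6 libraries, with all other transcripts in grey. The Rps24 form with the 18-base exon fills most of both myotube bars, and reserve cells lie between myoblasts and myotubes for Rps24 but beside myoblasts for Rps10 and Rpl23a.

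For the other called members the replicates spread widely. Rps14-208 of Rps14, a 40S protein, had 6549 and 4982 counts in myoblasts, 1054 and 3028 in myotubes, and 41 and 48 in reserve cells, and a shorter coding transcript of 597 bases had 149 and 2879, 3595 and 3597, and 7049 and 5942. Rps14 as a gene had no call (413.6 to 426.7 CPM in myoblasts and 397.1 to 424.0 at Day 7). The shares of Rps14-208 were 73.1% ± 27.3 in myoblasts, 29.8% ± 17.2 in myotubes, with 0.560% ± 0.0940 in reserve cells. Its change of usage had an edgeR adjusted p of 0.00038 in reserve cells over myoblasts, which became 0.181 and 0.137 without reserve cell replicate 1 and 2. In myotubes over reserve cells it was 0.00245 (edgeR), and 0.35 and 0.293 without those replicates and 0.0696 without myotube replicate 2. For Rpl11 the coding transcript of 833 bases held 96.0% to 96.8% of the gene as the mean of each group, so the call (edgeR adjusted p = 0.0202 in myotubes over myoblasts) concerns minor forms.

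The other genes of translation give the setting. Ribosomal proteins also lie outside the naming rule. Rack1, the 40S scaffold of signalling proteins, was lower in myotubes at −0.35 ± 0.04 (edgeR adjusted p = 3.3e-05) and in reserve cells at −0.33 ± 0.04 (adjusted p = 0.00012). Fau, the fusion that yields the 40S protein of the mRNA entry, stood at 0.09 ± 0.05 and −0.12 ± 0.05 with no call against myoblasts.

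Of 39 tested initiation factors 27 were called higher and 6 lower in myotubes over myoblasts with TMM (median log2 fold change 0.24), beside 32.7% of all genes higher and 32.7% lower. Library totals gave 13 higher and 13 lower (median −0.04), beside 24.2% and 41.8% of all genes. In reserve cells over myoblasts 6 were higher and 13 lower (median −0.11), against 24.4% and 21.8% of all genes, and library totals gave 3 and 17 (median −0.18). Pabpc1, the cytoplasmic poly(A)-binding protein and itself a TOP mRNA, fell most of this list, from 1252 and 1219 CPM in myoblasts to 308.2 and 320.3 in myotubes and 771.1 and 815.1 in reserve cells (log2 fold changes −1.97 ± 0.04 and −0.64 ± 0.04, edgeR adjusted p = 2.4e-09 and 4.1e-06). Eif4a2, the second helicase of eIF4F, rose from 230.2 and 237.3 CPM to 633.8 and 668.2 in myotubes and 381.0 and 364.4 in reserve cells (1.48 ± 0.05 and 0.67 ± 0.04, edgeR adjusted p = 2.1e-08 and 6.2e-06).

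Of 9 elongation factors 3 were higher and 3 lower in myotubes over myoblasts, and 1 was higher and 6 lower in reserve cells, to be read against the same shares of all genes. With library totals these became 1 and 6 in myotubes and 1 and 8 in reserve cells. Eef1a2 is the form of the elongation factor that replaces Eef1a1 in mature muscle. It had 0 and 0 counts in myoblasts, 15 and 19 in myotubes and 11 and 14 in reserve cells, while Eef1a1 had 95797 to 149008 counts. Eef1a1 did not pass the test in myotubes over myoblasts (−0.01 ± 0.03, edgeR adjusted p = 0.777). Eef2k, the kinase that restrains elongation, fell from 58.4 and 57.1 CPM to 12.5 and 12.2 in myotubes, with 40.8 and 36.2 in reserve cells (edgeR adjusted p = 1.2e-07 and 0.00055 over myoblasts).

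Of 13 tested genes of mTOR signalling and TOP mRNA control 9 were higher and 2 lower in myotubes over myoblasts (median 0.57), and 6 were higher and 1 lower in reserve cells (median 0.22), against those same shares. The counts on library totals were 7 and 4 in myotubes (median 0.29) and 4 and 1 in reserve cells (median 0.15). Deptor, an inhibitor in the mTOR complexes, rose from 181.9 and 182.7 CPM in myoblasts to 601.8 and 620.3 in myotubes and 444.1 and 460.1 in reserve cells (1.75 ± 0.04 and 1.31 ± 0.04, edgeR adjusted p = 4.5e-09 and 5.5e-08). Rptor, the scaffold of mTORC1, rose from 101.7 and 107.3 CPM to 288.6 and 288.0 in myotubes and 148.9 and 160.8 in reserve cells (1.46 ± 0.06 and 0.57 ± 0.06, edgeR adjusted p = 9.3e-08 and 7.6e-05). Of 6 further mRNAs with a TOP element 3 were higher and 3 lower in myotubes over myoblasts, and 1 and 4 with library totals. Naca, a subunit of the nascent chain complex with a muscle form, reached 941.7 and 969.7 CPM from 345.7 and 365.6 (1.43 ± 0.06, edgeR adjusted p = 1.7e-07), and Hnrnpa1, a splicing factor, fell from 715.2 and 736.6 to 242.3 and 240.3 (−1.59 ± 0.04, edgeR adjusted p = 5.6e-09). Among 6 chaperones of single ribosomal proteins 3 were higher in myotubes over myoblasts and 0 lower (2 and 1 with library totals), among them Heatr3, which carries Rpl5 (0.71 ± 0.06, edgeR adjusted p = 6.2e-06).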

How the data were processed

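Per the labels and the study's methods, C2C12 RNA was read in paired ends, mapped to mm10 with HISAT2, filtered with SAMtools and counted per annotated transcript with StringTie (versions and annotation release not given in the sources used here). The authors deposited an estimated count per transcript and library, as whole numbers, and a table of the whole series whose values, treated as a score, are 2 times the estimated count or that less 1 in all 855624 cases. That table was used for limma-trend alone. The authors' own comparisons were made with DESeq2.

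Transcripts were paired with genes through GENCODE M21 (141374 of 142604), and counts were summed to symbols. Of 25269 symbols with a count, 15454 passed edgeR's filterByExpr (minimum count 10). edgeR 4.0.16 in R 4.3.3 (TMM, glmQLFit, glmQLFTest on all 6 libraries) gave log2 fold changes, SE and Benjamini-Hochberg adjusted p, two-sided, over all genes, called at 0.05. TPM are counts over transcript length, scaled to a common sum. The members and gene lists were chosen with earlier results of these data known. Genes named with values are those with the 4 largest called changes each way per comparison without overlap, members changed at least 2-fold, paralogs with their parents, members with fixed roles, the 5 smallest adjusted p for transcript usage, and up to 3 per further list. Naming of Rpl26, Rpl29, Tlcd1 and the sets in 3 groups came after their values were seen. Some genes that the rule names are not reported here. Pseudogene copies were found with blastn 2.17.0. The scripts were tested on simulated data. p-values rest on the spread between the 2 libraries of a group, estimated over all 3 groups together and moderated across genes. Depth limits what low counts, such as those of Rpl3l, can show. Alternatives were RLE factors, library totals, other filters, DESeq2 1.42.0, limma 3.58.1, subsets of libraries, a replicate block and copies added to parents.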

Additional observations from a re-analysis of the deposited data

Results flagged for a closer look

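Rps27a differed between the Day 7 groups under the same contrast with myoblasts. Its log2 fold change was 0.30 in myotubes and −0.23 in reserve cells, both called, and the difference between them, tested as myotubes over reserve cells with edgeR, was 0.53 ± 0.06 (adjusted p = 8.4e-05). On library totals the change in myotubes was 0.02 and the difference 0.32. Other members had no opposite calls in these groups.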

How the results depend on the processing

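Beside the TMM fit, 20 settings were run for genes and 9 for transcript usage, and 1 more left out the 5 members with more counts in their copies. With library totals, myotubes over myoblasts had 6 members higher and 59 lower (median −0.41), reserve cells over myoblasts a median of −0.34, and myotubes over reserve cells 11 higher and 22 lower (median −0.063). limma-trend on the series table, which has no TMM factor, gave the same counts with 1 or 10 added, medians of −0.37 and −0.35, −0.34 (with 1 added), and −0.0627 and −0.0546, and 0 higher in reserve cells over myoblasts. RLE left 4 lower in myotubes over reserve cells, and a filter at 10 CPM, which drops Rpl3l, left 0 higher in reserve cells over myoblasts (DESeq2 called 1). TMM from ribosomal protein genes only, added after seeing the data, centres the family by construction. It gave 18 lower in myotubes over myoblasts (median −0.0096), 16 higher and 3 lower in reserve cells over myoblasts (median 0.0074), and 16 higher and 13 lower in myotubes over reserve cells (median −0.0103). The F test called usage in 4 members for reserve cells over myoblasts and in 10 for myotubes over reserve cells.

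With each library left out in turn, myotubes over myoblasts had 11 to 18 higher and 24 to 36 lower (median −0.17 to −0.0826, the ends without myotube replicate 1 and 2), reserve cells over myoblasts 0 to 1 higher and 40 to 50 lower (median −0.32 to −0.23), and myotubes over reserve cells 24 to 41 higher (24 without reserve cell replicate 2) and 4 to 8 lower (4 without myotube replicate 2) (median 0.10 to 0.19). Usage was called in 3 to 5 members (3 without myotube replicate 1), 0 to 2 (0 without reserve cell replicate 1, 2 without myoblast replicate 1) and 2 to 5 (2 and 3 without reserve cell replicates 1 and 2). Signs turned for Rps27 (−0.26, −0.26 and −0.24) and Rps27l (−0.0394, −0.0397 and −0.0357) in myotubes over myoblasts and for Rpl10 (−0.13 in each), Rpl5 (−0.17, −0.17 and −0.16) and Rpl7 (−0.0417, −0.0417 and −0.0411) in myotubes over reserve cells, under library totals and limma-trend with 1 and 10 added. They turned in reserve cells over myoblasts under TMM from the family only for Rpl22 (0.0869), Rpl27 (0.18), Rpl39 (0.21), Rpl5 (0.0074), Rplp1 (0.20), Rplp2 (0.0382) and Rps27a (0.0438). Some of the turned values were called by edgeR. Under library totals these were Rps27 (adjusted p = 0.0342), Rpl10 (0.0358) and Rpl5 (0.00371). With factors from the family they were Rpl27 (edgeR adjusted p = 0.0274), Rpl39 (0.0353) and Rplp1 (0.0193). The cause of the turned signs was not tested. Deviations of libraries with the same replicate number were nearly uncorrelated between groups (0.0026, 0.039 and −0.028). These values cannot settle whether replicates of different groups came from the same culture. With the replicate block 16 members were higher and 36 lower, 1 and 50, and 41 and 7 in the order above. Usage was called in 6, 1 and 5, and all these counts were within 1.5 times.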
